A study of Mus musculus with 8 samples.

Results

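Solute carriers are membrane proteins that move amino acids, sugars, ions, metals, vitamins, nucleosides and metabolic intermediates across the plasma membrane and the membranes of organelles. Expressed members were defined by their level in these libraries: a gene symbol beginning with Slc and a digit, with at least 1 FPKM (read fragments scaled to transcript length and library size) in at least 2 of the 6 libraries analysed. The rule found 189 of the 345 solute carrier symbols among 17967 symbols in the tables. Of the 189 members, 170 reached 1 FPKM in all 6 libraries and 19 did not. The threshold was met only through SWAT in 2 members, only through EWAT in 4 and only through NWAT in 1, so these 7 (Slc37a1 and Slc37a2; Slc7a2, Slc17a7, Slc38a5 and Slc35g2; Slc7a10) were picked by being higher in that depot. Their values are given below without a test, and counts of called members are also given without them. Where a fold of theirs has an interval, it covers counting error only and does not allow for this choice. Slc5a3, Slc6a2, Slc6a12, Slc15a3, Slc16a3, Slc16a7, Slc36a2 and Slc40a1 met the threshold through 2 depots and stayed under 1 FPKM in the other. Their tests against that depot are therefore not free of the rule.

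The libraries were made from adipose-derived stem cells, the fibroblast-like precursors of fat cells, which were sorted by flow cytometry from the white fat of male C57BL/6J wild type mice on a chow diet. Subcutaneous inguinal (SWAT), epididymal (EWAT) and perirenal (NWAT) depots had 2 libraries each and shared strain, sex and diet. No source used here gives the age of the mice, their number per library or the antigens of the sort. A mesenteric depot belongs to the series and is not analysed here. Nor does any source say whether the replicates of a depot are different mice; a p-value here therefore reflects the spread from library to library, which may be technical.

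Carriers at the surface set what a cell takes up and gives off, and the mitochondrial carriers pass substrates between cytosol and matrix. Many amino acid carriers are exchangers, so that import of one amino acid is tied to export of another, and several work only with a partner protein such as the heavy chain Slc3a2 or basigin. In fat, carriers are known for the uptake of glucose and fatty acids by adipocytes. Progenitors need them for the amino acids, sulfate and metals of matrix synthesis.

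Each library held 20026413 to 20638724 estimated counts, of which the 189 members held 0.827% and 0.828% in SWAT, 0.993% and 0.998% in EWAT, and 0.937% and 0.910% in NWAT. Progenitor markers were abundant in every library: Pdgfra lay between 152 and 224 FPKM and Cd34 between 481 and 689 FPKM. Markers of other cells were mostly low but not equal. An exception was the endothelial gene Tek, at 43.8 to 79.6 FPKM, while the other endothelial genes never passed 2.88. The 8 macrophage genes summed to 7.91 and 15.6 FPKM in SWAT, 34.9 and 35.1 in EWAT, and 18.8 and 17.5 in NWAT; Cd68 made up 10.1 to 12.6 FPKM of this in EWAT and NWAT, and the leukocyte gene Ptprc never passed 0.19. Against EWAT, 6 of the 8 were called lower in SWAT, and against NWAT 1, Fcer1g; Csf1r and Adgre1 were lowest in NWAT. The 5 mature adipocyte genes summed to 0.97 and 1.03 in SWAT, 1.88 and 5.41 in EWAT, and 2.80 and 3.70 in NWAT, with Lep at 0.04 or less. The 4 erythroid genes summed to 286 FPKM in NWAT replicate 2 and to 7.82 to 23.7 in the other 5 libraries. Epithelial genes stayed at or under 0.28 FPKM in sum. The 5 mesothelial genes summed to 2.61 and 2.35 FPKM in SWAT, 3.82 and 3.90 in EWAT, and 7.20 and 6.88 in NWAT. Against EWAT, 4 of these 5 were called lower in SWAT and 1, Krt19, higher. Against NWAT, 4 were called lower in SWAT and 0 higher. In bulk RNA, fewer cells of a type and less RNA per cell cannot be told apart.

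The members spanned a wide range of levels. Their median was 7.05 FPKM, 6 had a mean of 100 FPKM or more, 66 lay from 10 to under 100, 87 from 2 to under 10, and 30 under 2. The first 5 members held 30.4% of the summed FPKM of all 189. Highest of all was Slc43a3, a purine nucleobase carrier at chr2:84936545-84958509 (GRCm38.p6), with 265 and 230 FPKM in SWAT, 536 and 495 in EWAT, and 340 and 355 in NWAT. It was followed by the glutamine and neutral amino acid exchanger Slc1a5, the adenine nucleotide carrier Slc25a4, the glutamine carrier Slc38a2, the mitochondrial phosphate carrier Slc25a3 and the nucleoside carrier Slc29a1. Without Slc43a3 the members' share of all FPKM was 0.719% and 0.727% in SWAT, 0.756% and 0.769% in EWAT and 0.731% and 0.778% in NWAT, so EWAT and NWAT overlapped. At the threshold, Slc5a3, Slc37a1 and Slc15a3 were just inside, with a second highest library of 1.01, 1.14 and 1.20 FPKM. Just outside were Slc11a1 at 0.96, Slc25a21 at 0.87 and Slc29a2 at 0.79. Glucose transport in insulin-responsive adipocytes relies on Slc2a4, which was no member, with 0.36 to 0.70 FPKM. The cystine carrier Slc7a11 was no member either, at 0.01 to 0.06 FPKM.

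**Figure D1:**
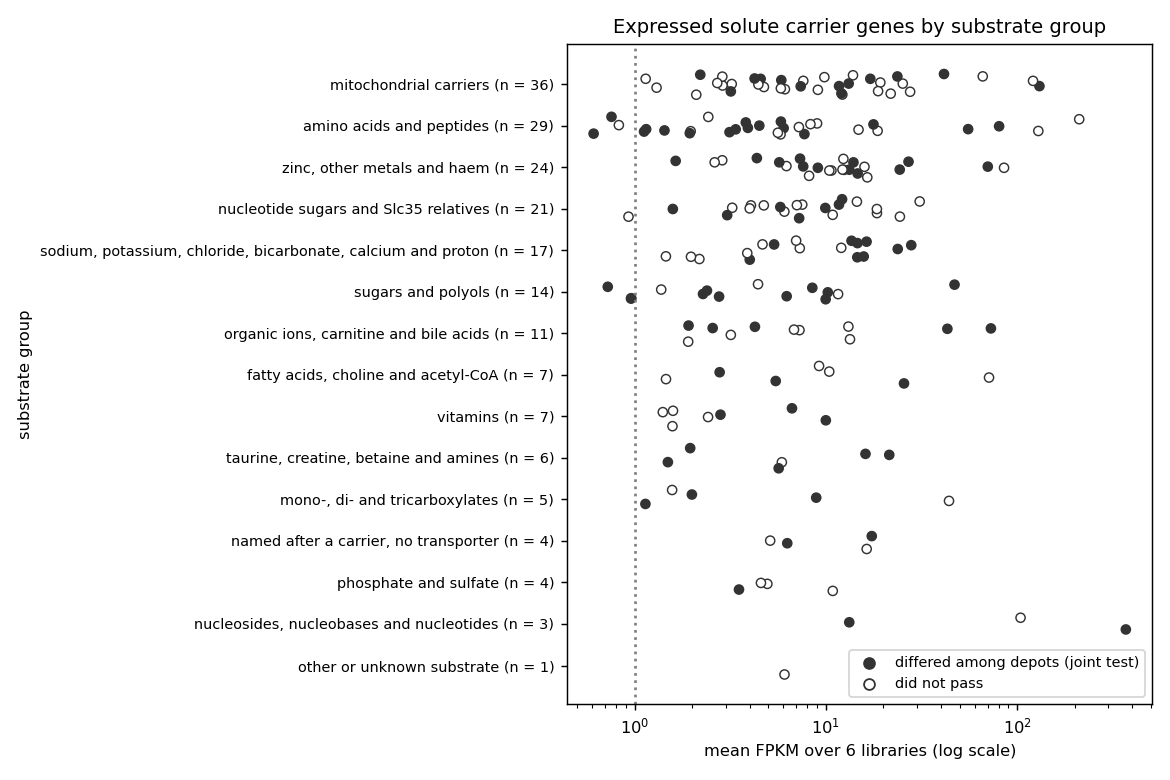
Mean FPKM over 6 libraries (log axis) for each of the 189 members, arranged by substrate group; 1 point is 1 gene, filled where the joint test among depots passed. Called and uncalled members are spread over the whole range of levels, and the dotted line marks 1 FPKM.

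The share of members that differed among depots was near that of other genes. The joint edgeR test of SWAT, EWAT and NWAT passed at an adjusted p under 0.05 in 93 members (49.2%), beside 41.7% of all 13694 genes tested and 44.1% of the 11568 tested genes that meet the same FPKM threshold. It passed in 80 of the 170 members that reached the threshold in every library and in 13 of the 19 others. Of the 182 that met it through more than 1 depot, 87 passed. The range between the highest and lowest depot mean had a median of 0.39 log2 units over the members and 0.39 over genes at the same threshold. A range of 1 or more was found in 31 members (16.4%), of which 6 met the threshold through 1 depot only, beside 13.9% of those genes. Called members were found at all levels: 36 of 72 members at 10 FPKM or more, 42 of 87 from 2 to under 10, and 15 of 30 under 2 were called. Ranges of 1 or more were found in 3 members at 10 FPKM or more, in 15 from 2 to under 10, and in 13 under 2, or 7 without those that met the threshold through 1 depot.

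SWAT against EWAT gave 73 called members, 41 higher in SWAT and 32 lower, where 36.7% of all genes were called, 18% higher and 18.7% lower. SWAT against NWAT gave 50, of which 36 were higher in SWAT and 14 lower, with 18.9% of all genes called, 9.07% higher and 9.83% lower. EWAT against NWAT gave 56, of which 30 were higher in EWAT and 26 lower, with 27.3% of all genes called, 13.3% higher and 14% lower. These pairs share libraries. Without the 7 members that met the threshold through 1 depot, SWAT against EWAT had 39 higher and 29 lower, SWAT against NWAT 34 and 13, and EWAT against NWAT 27 and 25. The direction of the SWAT calls depended on how libraries were scaled: with library totals in place of TMM factors, SWAT against EWAT gave 22 higher and 63 lower and SWAT against NWAT 16 higher and 39 lower. With FPKM values the splits were 22 and 58, and 17 and 34. EWAT against NWAT was less affected, with 34 higher and 23 lower by library totals, and 35 and 21 by FPKM. Library totals moved the median log2 fold change of all genes by -0.24 in SWAT against EWAT, -0.19 in SWAT against NWAT and 0.05 in EWAT against NWAT. Log2 fold changes below come from the TMM-scaled counts with their standard error, and FPKM values, which follow library totals, make SWAT look lower than those fold changes do.

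**Figure D2:**
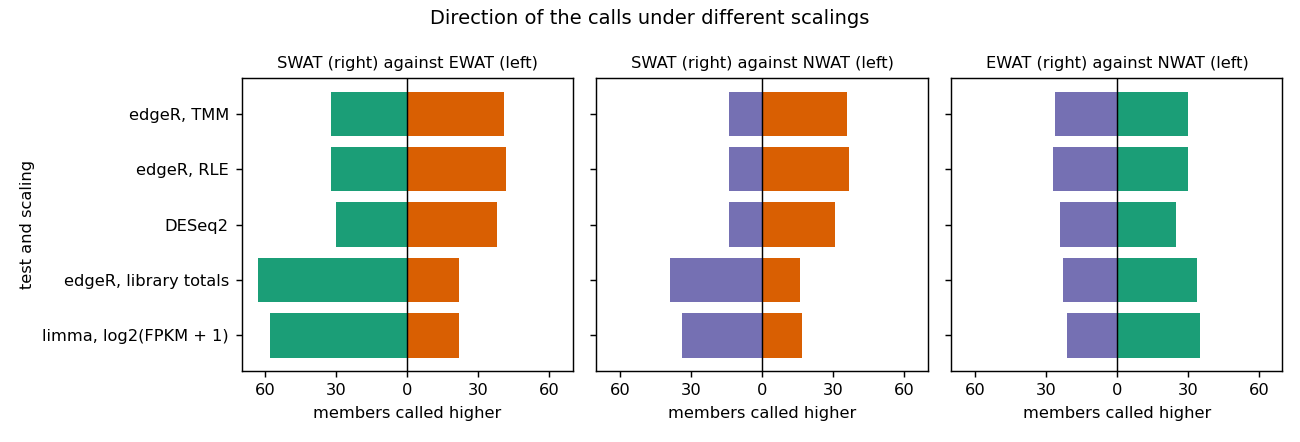
Number of members called higher (right) or lower (left) in the depot named first, for each pair of depots and 5 combinations of test and scaling. SWAT against EWAT turns from 41 higher and 32 lower with TMM factors to 22 and 63 with library totals, whereas EWAT against NWAT keeps a similar split.

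The counts were also sensitive to single libraries. SWAT against NWAT gave 29 called members without SWAT replicate 1, 32 without SWAT replicate 2, 28 without NWAT replicate 1 and 26 without NWAT replicate 2, and EWAT against NWAT gave 35 without NWAT replicate 1. The library with erythroid RNA was NWAT replicate 2. Across the 14 alternatives, 52 of the 93 joint calls held in each one that tested the gene; 4 of the 52 were not tested in all. Of the pairwise calls, 41 of 73 between SWAT and EWAT held, as did 19 of 50 between SWAT and NWAT and 33 of 56 between EWAT and NWAT. Pairwise calls of single genes described below held in all of these unless stated, whereas counts of called members in a group are from edgeR with TMM scaling. Each group count is to be read beside the shares of all genes given above. These were 41.7% in the joint test, and 18% higher and 18.7% lower in SWAT against EWAT.

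A member was set apart in a depot when it differed from both other depots in the same direction. SWAT had 22 members set apart as higher and 7 as lower, beside 6.21% and 5.88% of all genes; by library totals these were 10 and 26. Leaving out SWAT replicate 1, NWAT replicate 1 or NWAT replicate 2 brought the total of 29 to 17, 19 and 18. EWAT had 18 higher and 15 lower, beside 9.02% and 8.57% of all genes; by library totals these were 24 and 11. NWAT had 4 higher and 11 lower, beside 3.42% and 2.35% of all genes. By library totals these were 10 and 8, by FPKM 7 and 8, and without NWAT replicate 2 they were 4 and 4. Without the 7 members that met the threshold through 1 depot, the counts of higher and lower were 20 and 7 in SWAT, 15 and 15 in EWAT, and 3 and 11 in NWAT. Among groups of 5 or more, the joint test passed in the highest shares of sugar carriers (10 of 14, or 8 of 12 without those that met the threshold through 1 depot) and carriers of taurine, creatine, betaine and amines (5 of 6), and in the lowest shares of mitochondrial carriers (13 of 36) and nucleotide sugar carriers and their Slc35 relatives (7 of 21). These shares were not compared by a test, and the share over all genes was 41.7%.

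**Figure D3:**
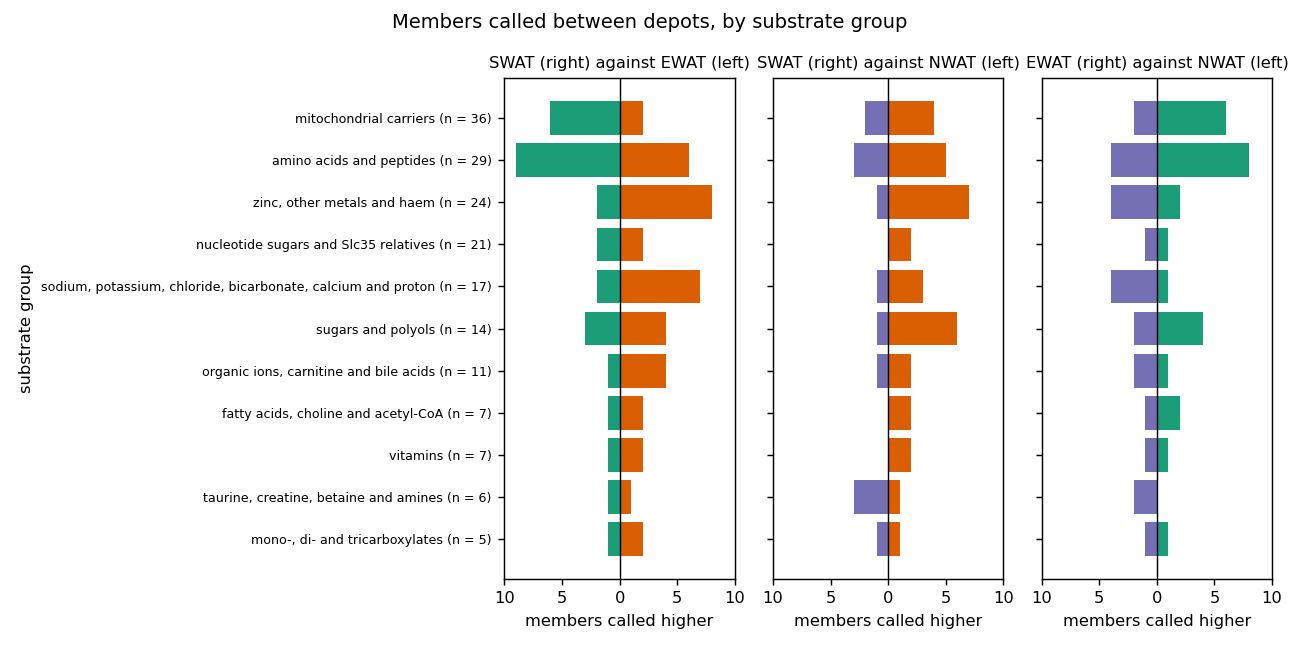
Number of members called higher in the depot named first (right) or second (left), for substrate groups of 5 or more members, by edgeR with TMM scaling. Over all genes, 18% were called higher and 18.7% lower in SWAT than in EWAT. Amino acid carriers were called higher in EWAT than in SWAT in 9 members and lower in 6, or 6 and 6 without the members that met the threshold through 1 depot, and metal carriers higher in SWAT in 8 and lower in 2; the metal split reverses to 3 and 6 with library totals.

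Promoter windows are shown for the member that exceeded both other depots most in each depot, by the smaller of its 2 log2 differences: Slc37a2 in SWAT, Slc38a5 in EWAT and Slc7a10 in NWAT. They were chosen after their values were seen, and each met the FPKM threshold only through that depot. Windows of 300 bases, from 250 before to 50 after the RefSeq start, are given 5′ to 3′ on the gene's strand (GRCm38.p6), with motif matches in capitals. The Slc37a2 window lies at chr9:37255689-37255988 on the minus strand, that of Slc38a5 at chrX:8271131-8271430 on the plus strand and that of Slc7a10 at chr7:35186135-35186434 on the plus strand. The start used for Slc7a10 lies 290 bases inside the annotated gene.
Slc37a2: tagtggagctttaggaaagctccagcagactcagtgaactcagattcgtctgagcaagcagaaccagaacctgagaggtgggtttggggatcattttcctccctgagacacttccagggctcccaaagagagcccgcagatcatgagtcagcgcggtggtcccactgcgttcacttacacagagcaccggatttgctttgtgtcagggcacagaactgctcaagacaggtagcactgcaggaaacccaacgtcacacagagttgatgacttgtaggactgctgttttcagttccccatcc
Slc38a5: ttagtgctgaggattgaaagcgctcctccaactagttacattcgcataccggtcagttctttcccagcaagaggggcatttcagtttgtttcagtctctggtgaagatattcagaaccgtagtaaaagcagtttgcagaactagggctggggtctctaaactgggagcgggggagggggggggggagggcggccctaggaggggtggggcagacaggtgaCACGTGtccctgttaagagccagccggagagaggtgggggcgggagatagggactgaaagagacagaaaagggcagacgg
Slc7a10: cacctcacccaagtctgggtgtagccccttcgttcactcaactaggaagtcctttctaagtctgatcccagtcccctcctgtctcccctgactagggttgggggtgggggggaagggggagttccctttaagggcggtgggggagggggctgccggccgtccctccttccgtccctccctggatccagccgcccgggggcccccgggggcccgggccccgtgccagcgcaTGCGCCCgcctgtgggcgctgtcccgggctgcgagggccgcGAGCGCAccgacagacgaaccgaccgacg
Both strands were searched for a TATA box (TATAAA), 2 E-boxes (CACGTG and CAGCTG), the amino acid response element core (TGATGNAAT) and the metal response element core (TGCGCNC or TGCACNC). Slc37a2 had no match, Slc38a5 had CACGTG beginning 30 bases before the start, and Slc7a10 had TGCGCCC beginning 20 bases before it and GAGCGCA, a match on the other strand, 21 bases after it. CACGTG was found in 16.4% of 146 members with a window and in 8.09% of 27025 genes with one, and in 11.8% of genes at the same FPKM threshold. The metal core was found in 45.2% of members, 28.2% of all genes and 41% of genes at the same FPKM threshold. The amino acid core was found in 0 members and in 1.08% of all genes and 0.58% of genes at that threshold.

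Amino acid and peptide carriers included Slc38a5, Slc17a7, Slc7a10 and Slc7a2, each of which met the threshold through 1 depot only and so had to be high there; among the other members, Slc38a4 had the widest range. Of 29 members, 17 passed the joint test, or 13 of 25 without those 4, beside 41.7% of all genes. EWAT was higher than SWAT in 9 and lower in 6, and higher than NWAT in 8 and lower in 4; the corresponding counts by library totals were 12 and 5, and 8 and 4. Without those 4 members EWAT was higher than SWAT in 6 and lower in 6, and higher than NWAT in 5 and lower in 3. The most abundant members varied little. Slc1a5 had 185 and 188 FPKM in SWAT, 236 and 263 in EWAT, and 210 and 185 in NWAT, and none of its pairs passed (log2 fold change of EWAT against NWAT 0.21 ± 0.11, adjusted p = 0.180). Slc38a2 had 111 and 126 FPKM in SWAT, 131 and 119 in EWAT, and 149 and 139 in NWAT, and it did not pass either. The heavy chain Slc3a2, which carries the light chains of the Slc7 family to the surface, had 42.3 and 40.1 FPKM in SWAT, 66.8 and 74 in EWAT, and 55.5 and 53.9 in NWAT. It was lower in SWAT than in EWAT (-0.48 ± 0.10, adjusted p = 0.00282) and the groups did not overlap. Its light chain Slc7a5, a large neutral amino acid exchanger, had 2.82 and 2.74 FPKM in SWAT, 4.57 and 5.16 in EWAT, and 4.32 and 3.84 in NWAT, with a SWAT against EWAT change of -0.57 ± 0.13, adjusted p = 0.00479, lost without SWAT replicate 2 (-0.53).

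The cationic amino acid carrier Slc7a2, which takes up arginine and lysine, was mainly an EWAT transcript. It had 0.22 and 0.34 FPKM in SWAT, 3.59 and 3.52 in EWAT, and 0.46 in both NWAT libraries, so each EWAT library was far above the other 4, and EWAT was the only depot in which it met the threshold. Slc38a5, a glutamine and serine carrier, had 260 counts in the EWAT libraries, 2 in NWAT and 0 in SWAT, or 0 FPKM in both SWAT libraries, 2.73 and 4.1 in EWAT, and 0.03 in both NWAT libraries. EWAT was thus at least 36.9-fold higher than SWAT, with a floor of 3 counts per SWAT library, and 124-fold higher than NWAT (exact 95% interval of the counts 33.9 to 1027). Slc17a7, the vesicular glutamate transporter known from excitatory neurons, had 0.05 and 0.02 FPKM in SWAT, 1.72 and 1.61 in EWAT, and 0.12 and 0.14 in NWAT. Its EWAT counts were 42.8-fold those of SWAT (16.5 to 159) and 12.8-fold those of NWAT (7.55 to 23.2). These intervals cover counting error only, with the 2 libraries of a depot pooled. They do not allow for the choice of these genes by their EWAT level and are no test.

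More amino acid carriers were set apart as higher in EWAT at moderate levels. Slc7a8, a light chain for neutral amino acids, had 12 and 15.2 FPKM in SWAT, 27.8 and 27.6 in EWAT, and 12.2 and 11.6 in NWAT. It was lower in SWAT than in EWAT (-0.80 ± 0.11, adjusted p = 2.46e-04) and higher in EWAT than in NWAT (1.15 ± 0.12, adjusted p = 2.25e-05), while SWAT and NWAT overlapped. The glycine carrier Slc6a9 had 4.85 and 3.99 FPKM in SWAT, 9.75 and 9.67 in EWAT, and 4.29 and 3.53 in NWAT, with EWAT above both others (EWAT against NWAT 1.27 ± 0.14, adjusted p = 4.55e-05). Slc43a2, which carries branched-chain amino acids and phenylalanine, had 1.33 and 1.58 FPKM in SWAT, 3.31 and 2.95 in EWAT, and 1.27 and 1.21 in NWAT. Here too both EWAT libraries lay above the other 4 (EWAT against NWAT 1.39 ± 0.14, adjusted p = 1.93e-05).

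In NWAT the pattern was carried by other amino acid genes. Slc38a4, a carrier of neutral and cationic amino acids at chr15:96994816-97055956, had 4.18 and 3.96 FPKM in SWAT, 1.07 and 1.19 in EWAT, and 8.99 and 7.53 in NWAT. All 3 depots were separate, in the order NWAT, SWAT, EWAT, and EWAT against NWAT was the widest of its differences (-2.90 ± 0.15, adjusted p = 1.58e-07), followed by SWAT against EWAT (2.05 ± 0.15) and SWAT against NWAT (-0.85 ± 0.13). Slc7a10, a small neutral amino acid exchanger known as a surface protein of white adipocytes, had 0.03 and 0.09 FPKM in SWAT, 0.2 and 0.17 in EWAT, and 2.15 and 1.9 in NWAT. Its NWAT counts were 35.1-fold those of SWAT (exact 95% interval 13.4 to 131) and 11-fold those of EWAT (6.47 to 20.1). Here too the intervals cover counting error only and do not allow for the choice of the gene by its NWAT level. The 5 adipocyte genes summed to 0.97 and 1.03 FPKM in SWAT, 1.88 and 5.41 in EWAT, and 2.80 and 3.70 in NWAT. Adipoq was highest in NWAT by depot mean, with 0.16 and 0.24 FPKM in SWAT, 0.12 and 0.64 in EWAT, and 0.61 and 0.87 in NWAT. No pair of depots was called for Adipoq. Plin1, Cidec and Retn were instead highest in EWAT by depot mean. Plin1 had 1.15 and 3.66 FPKM in EWAT and 1.66 and 2.21 in NWAT. The part of adipocytes in the Slc7a10 level was not tested. Slc36a2, a proton-coupled carrier known from brown and beige adipocytes, had 0.13 and 0.73 FPKM in SWAT, 1.26 and 1.33 in EWAT, and 1.74 and 1.53 in NWAT. It met the FPKM threshold only through EWAT and NWAT, so its tests against SWAT are not free of the rule. Only SWAT against NWAT passed (-1.77 ± 0.49, adjusted p = 0.0335), and without SWAT replicate 1 (-1.02), EWAT replicate 1 (-1.77), EWAT replicate 2 (-1.76), NWAT replicate 1 (-1.64) or NWAT replicate 2 (-1.88) it no longer did.

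The glutamate carrier Slc1a3 was lowest in NWAT. It had 7.72 and 9.01 FPKM in SWAT, 6.32 and 6.51 in EWAT, and 2.58 and 2.76 in NWAT, and all 3 pairs passed, with SWAT against NWAT at 1.83 ± 0.12, adjusted p = 1.02e-06 and EWAT against NWAT at 1.22 ± 0.12. Slc38a10, a relative of the glutamine carriers, had 102 and 95.1 FPKM in SWAT, 65.4 and 64.9 in EWAT, and 79.7 and 75.6 in NWAT. SWAT was higher than EWAT (0.84 ± 0.11, adjusted p = 1.16e-04). Slc7a7, a light chain that exports cationic amino acids and is also expressed in macrophages, had 4.04 and 2.22 FPKM in SWAT, 2.91 and 2.87 in EWAT, and 5.93 and 4.9 in NWAT, with 1 SWAT library above and 1 below the EWAT pair. EWAT was lower than NWAT (-0.92 ± 0.22, adjusted p = 0.0106), a call lost without EWAT replicate 2 (-0.91) or NWAT replicate 1 (-0.79). The macrophage genes had the opposite order, 34.9 and 35.1 FPKM in EWAT and 18.8 and 17.5 in NWAT. Their part in this result was not tested.

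Sugar carriers did not all go the same way. Within the Slc2 family, 2 members were called higher and 2 lower in SWAT than in EWAT. The joint test passed in 8 of the 12 members that met the threshold through more than 1 depot, beside 41.7% of all genes. Slc37a1 and Slc37a2 met the threshold through SWAT only. Slc2a1, the basal glucose carrier of most cells, had 6.55 and 7.13 FPKM in SWAT, 11.2 and 12.3 in EWAT, and 11.7 and 12.5 in NWAT. SWAT was lower than EWAT (-0.54 ± 0.11, adjusted p = 0.00264) and than NWAT (-0.63 ± 0.11, adjusted p = 0.00171), with no overlap, and EWAT and NWAT overlapped. Slc2a3, the high-affinity glucose carrier of neurons and leukocytes, had 0.95 and 1.74 FPKM in SWAT, 3.86 and 3.87 in EWAT, and 1.7 and 1.54 in NWAT. EWAT was higher than SWAT (SWAT against EWAT -1.40 ± 0.19, adjusted p = 1.44e-04) and than NWAT (1.24 ± 0.18, adjusted p = 4.14e-04), and the summed macrophage genes were also highest there. The part of macrophages in this result was not tested.

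The proton-coupled inositol carrier Slc2a13 had 4.41 and 4.09 FPKM in SWAT, 1.43 and 1.04 in EWAT, and 2.94 and 2.67 in NWAT. SWAT exceeded NWAT and NWAT exceeded EWAT without overlap, and the log2 fold changes were 2.02 ± 0.16 between SWAT and EWAT (adjusted p = 1.59e-06), 0.79 ± 0.15 between SWAT and NWAT, and -1.23 ± 0.16 between EWAT and NWAT. Slc45a3, a sugar carrier of the Slc45 family, had 1.61 and 1.91 FPKM in SWAT, 4.42 and 4.21 in EWAT, and 1.09 in both NWAT libraries. Its order was EWAT, SWAT, NWAT, and all pairs passed, with EWAT against NWAT at 1.96 ± 0.16, adjusted p = 4.86e-06. The Slc37 family of sugar phosphate exchangers had all 4 of its symbols among the members. Slc37a2 had 1.68 and 2.14 FPKM in SWAT, 0.46 and 0.36 in EWAT, and 0.54 and 0.56 in NWAT and Slc37a1 had 1.52 and 1.14 FPKM in SWAT, 0.36 and 0.23 in EWAT, and 0.71 and 0.38 in NWAT. In both, each SWAT library was above the 4 others, and SWAT was the only depot in which they met the threshold. Slc37a2 is known to be high in macrophages, whose genes summed to 7.91 and 15.6 FPKM in SWAT, 34.9 and 35.1 in EWAT, and 18.8 and 17.5 in NWAT; their part in this result was not tested.

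The group of mono-, di- and tricarboxylate carriers, assigned mainly by family, was small, with 5 members. Slc16a1 is a lactate and pyruvate carrier of most cells, Slc16a7 is a relative with higher affinity and Slc16a3 the lactate exporter of glycolytic cells. Slc16a7 met the FPKM threshold only through SWAT and EWAT, and Slc16a3 only through EWAT and NWAT. Tests of Slc16a7 against NWAT and of Slc16a3 against SWAT are therefore not free of the rule. Slc16a7 had 2.92 and 3.04 FPKM in SWAT, 2.18 and 2.33 in EWAT, and 0.78 and 0.7 in NWAT, and NWAT was lower than SWAT (SWAT against NWAT 2.14 ± 0.14, adjusted p = 1.45e-06) and than EWAT (EWAT against NWAT 1.40 ± 0.15, adjusted p = 2.93e-05). Slc16a3 had 0.49 and 0.54 FPKM in SWAT, 1.14 and 1.27 in EWAT, and 1.72 and 1.67 in NWAT. It ran the other way, lowest in SWAT (SWAT against NWAT -1.61 ± 0.25, adjusted p = 7.93e-04, SWAT against EWAT -1.06 ± 0.26), with no overlap among the depots, although EWAT against NWAT did not pass (-0.55 ± 0.22, adjusted p = 0.0923). Slc16a1 had 8.79 and 8.47 FPKM in SWAT, 7.2 and 7.5 in EWAT, and 11.5 and 9.97 in NWAT and was lower in EWAT than in NWAT (-0.59 ± 0.11, adjusted p = 0.00165). The most abundant member, Slc16a9, was placed in this group by its family, not by a known substrate. It had 46.1 and 37.7 FPKM in SWAT, 42 and 37.8 in EWAT, and 53 and 47.6 in NWAT and did not pass.

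Among carriers of fatty acids, choline and acetyl-CoA 3 of 7 members passed, beside 41.7% of all genes. Slc27a1, a fatty acid transport protein with acyl-CoA synthetase activity, had 5.76 and 7.18 FPKM in SWAT, 5.88 and 5.93 in EWAT, and 4.02 in both NWAT libraries. NWAT was lower than SWAT (0.91 ± 0.13, adjusted p = 5.01e-04). Slc27a3, an acyl-CoA synthetase of the same family, had 3.29 and 3.83 FPKM in SWAT, 1.66 and 1.83 in EWAT, and 2.8 and 3.28 in NWAT and was lower in EWAT, with SWAT against EWAT at 1.23 ± 0.17, adjusted p = 1.99e-04 and EWAT against NWAT at -0.85 ± 0.17, adjusted p = 0.00350. The choline carrier-like Slc44a2 had 23.7 and 25.4 FPKM in SWAT, 31.2 and 33.7 in EWAT, and 20.3 and 19.4 in NWAT, and EWAT was higher than NWAT (0.67 ± 0.10, adjusted p = 3.83e-04). Slc44a1, the most abundant of the group, had 57.3 and 53.8 FPKM in SWAT, 86.2 and 91 in EWAT, and 73.3 and 66.3 in NWAT and did not pass the joint test.

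**Figure D4:**
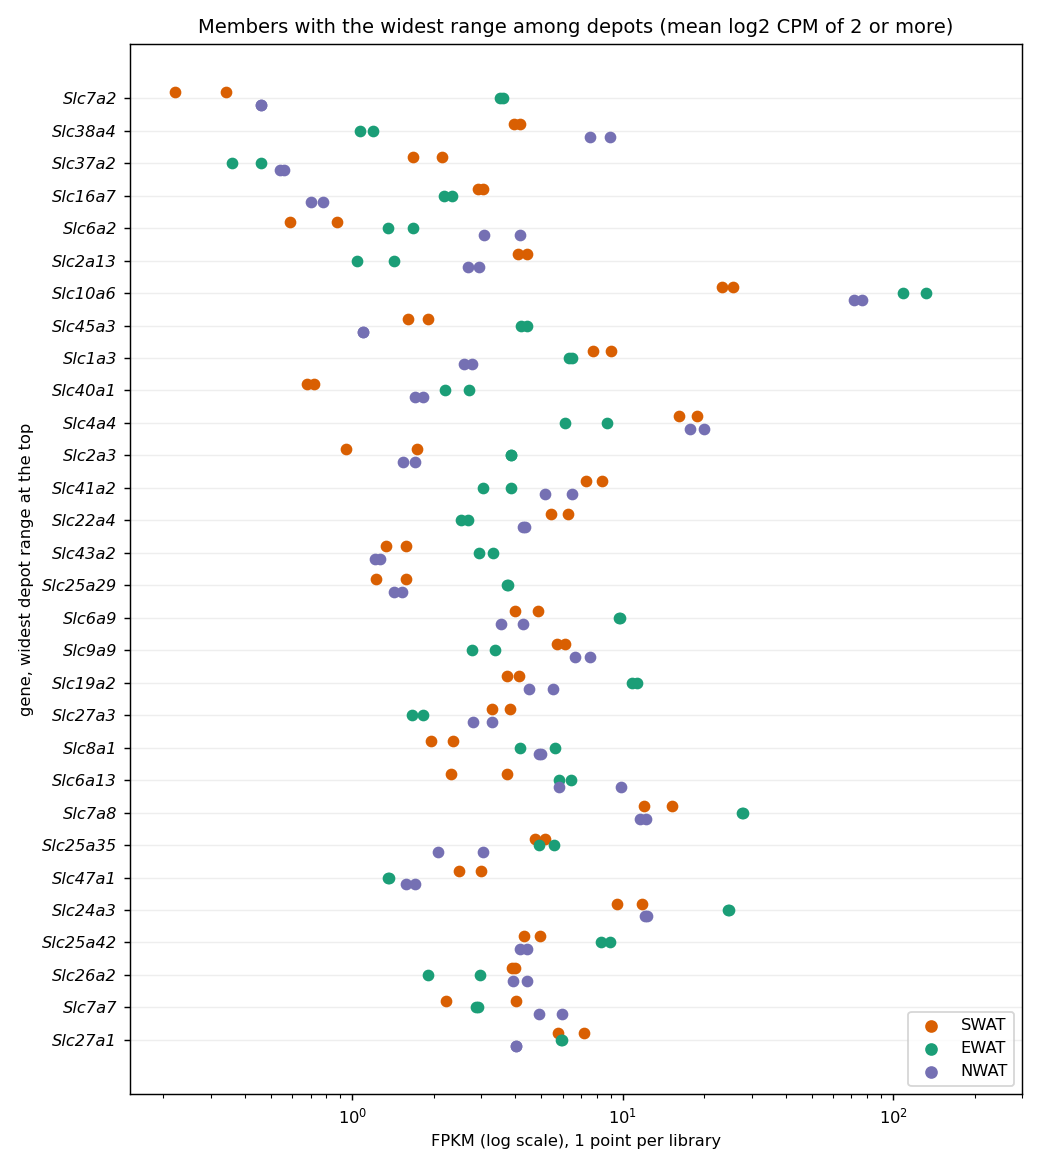
FPKM (log axis) of each library for the 30 members with a joint call, a mean log2 CPM of 2 or more and the widest range of depot means; colours mark the depot, and each depot has 2 points per gene. Slc7a2 stands highest in EWAT and Slc38a4 lowest in EWAT, Slc37a2 highest in SWAT and Slc16a7 lowest in NWAT; Slc7a2 and Slc37a2 met the FPKM threshold only through the depot in which they are highest.

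Mitochondrial carriers were the largest group, with 36 members of which 13 were called, beside 41.7% of all genes. SWAT was lower than EWAT in 6 and higher in 2, beside 18.7% and 18% of all genes. By library totals it was lower in 15 and higher in 0. The heart and muscle type adenine nucleotide carrier Slc25a4 had 97.3 and 102 FPKM in SWAT, 144 and 178 in EWAT, and 130 and 134 in NWAT. SWAT was lower than EWAT (-0.46 ± 0.11, adjusted p = 0.00809), a call lost without SWAT replicate 1 (-0.45) or SWAT replicate 2 (-0.47). Its ubiquitous paralog Slc25a5 had 60.4 and 65.3 FPKM in SWAT, 69.3 and 86.7 in EWAT, and 52.4 and 62.5 in NWAT, and the phosphate carrier Slc25a3 had 107 and 104 FPKM in SWAT, 129 and 157 in EWAT, and 114 and 116 in NWAT; neither passed the joint test. Paralogs as alike as Slc25a4 and Slc25a5 may share reads.

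The clearest differences in this group lay in less abundant carriers. Slc25a42, a carrier of coenzyme A, had 4.3 and 4.93 FPKM in SWAT, 8.29 and 8.94 in EWAT, and 4.43 and 4.18 in NWAT, and EWAT was higher than NWAT (0.96 ± 0.12, adjusted p = 8.75e-05) and than SWAT (SWAT against EWAT -0.67 ± 0.11). Slc25a29, a carrier of basic amino acids, had 1.58 and 1.22 FPKM in SWAT, 3.75 and 3.72 in EWAT, and 1.52 and 1.43 in NWAT. Its EWAT pair was again above all others (SWAT against EWAT -1.18 ± 0.21, adjusted p = 0.00107, EWAT against NWAT 1.29 ± 0.21). Slc25a23, a calcium-regulated ATP-magnesium and phosphate carrier, had 8.83 and 9.11 FPKM in SWAT, 10.9 and 10.2 in EWAT, and 17 and 14.4 in NWAT and was higher in NWAT than in SWAT (SWAT against NWAT -0.62 ± 0.11, adjusted p = 0.00214) and EWAT (EWAT against NWAT -0.62 ± 0.11). Slc25a35, whose substrate is not well established, had 5.16 and 4.73 FPKM in SWAT, 4.88 and 5.55 in EWAT, and 3.03 and 2.08 in NWAT. It was lower in NWAT than in SWAT (1.12 ± 0.19, adjusted p = 0.00131) and EWAT (EWAT against NWAT 0.96 ± 0.19). The carnitine-acylcarnitine carrier Slc25a20 had 8.85 and 9.97 FPKM in SWAT, 13.5 and 16.2 in EWAT, and 12.2 and 11.6 in NWAT, with SWAT against EWAT at -0.42 ± 0.12, adjusted p = 0.0169; DESeq2 (-0.41) and leaving out SWAT replicate 1 (-0.36), SWAT replicate 2 (-0.49) or EWAT replicate 2 (-0.29) lost it.

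Organic ion carriers held the widest difference among abundant members. Slc10a6 carries sulfated steroids and lies at chr5:103605711-103629403. It had 25.6 and 23.2 FPKM in SWAT, 108 and 132 in EWAT, and 76.7 and 71.7 in NWAT, so the 3 depots were separate and EWAT was highest. SWAT differed from EWAT by -2.0 ± 0.12, adjusted p = 1.35e-07, and from NWAT by -1.40 ± 0.12, and EWAT differed from NWAT by 0.60 ± 0.11 on the log2 scale. Slc22a4, known for carrying ergothioneine, had 5.41 and 6.29 FPKM in SWAT, 2.53 and 2.68 in EWAT, and 4.35 and 4.27 in NWAT. SWAT was highest and EWAT lowest (SWAT against EWAT 1.40 ± 0.14, adjusted p = 1.63e-05, EWAT against NWAT -0.77 ± 0.15). Its relative Slc22a5, the carnitine carrier, was not called in any pair. Slc47a1, a proton-coupled exporter of organic cations, had 3.0 and 2.48 FPKM in SWAT, 1.36 and 1.35 in EWAT, and 1.71 and 1.58 in NWAT and was higher in SWAT than in EWAT (1.02 ± 0.20, adjusted p = 0.00241).

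Ion carriers included 9 called members of 17, beside 41.7% of all genes. Slc4a4, a sodium bicarbonate cotransporter, had 16.1 and 18.8 FPKM in SWAT, 8.77 and 6.11 in EWAT, and 20 and 17.7 in NWAT. EWAT was lower than SWAT (SWAT against EWAT 1.49 ± 0.17, adjusted p = 1.01e-04) and NWAT (EWAT against NWAT -1.41 ± 0.17, adjusted p = 2.04e-04), and SWAT and NWAT overlapped. The endosomal sodium-proton exchanger Slc9a9 had 5.71 and 6.1 FPKM in SWAT, 3.38 and 2.77 in EWAT, and 6.67 and 7.53 in NWAT and likewise was lowest in EWAT (SWAT against EWAT 1.17 ± 0.14, adjusted p = 4.48e-05).

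Calcium exchangers did not move together. Slc24a3, a potassium-dependent sodium-calcium exchanger, had 9.5 and 11.7 FPKM in SWAT, 24.5 and 24.6 in EWAT, and 12 and 12.2 in NWAT and was highest in EWAT (SWAT against EWAT -0.97 ± 0.11, adjusted p = 3.58e-05, EWAT against NWAT 0.98 ± 0.11). The 5 smooth muscle and pericyte genes summed to 9.67 and 11.8 FPKM in EWAT and to 1.72 to 5.21 elsewhere. They did not all go the same way. In EWAT against SWAT, 3 were called higher and 2, Kcnj8 and Cspg4, lower. Their part in the Slc24a3 result was not tested. Slc8a1, the sodium-calcium exchanger of the plasma membrane, had 1.96 and 2.36 FPKM in SWAT, 5.62 and 4.16 in EWAT, and 4.99 and 4.89 in NWAT and was lowest in SWAT (SWAT against EWAT -1.21 ± 0.12, adjusted p = 1.35e-05, SWAT against NWAT -0.99 ± 0.12). The mitochondrial sodium-calcium exchanger Slc8b1 had 16.4 and 16.8 FPKM in SWAT, 12.8 and 11.1 in EWAT, and 12.1 and 12.4 in NWAT and was highest in SWAT (SWAT against EWAT 0.69 ± 0.11, adjusted p = 4.94e-04, SWAT against NWAT 0.64 ± 0.11). The potassium-chloride cotransporter Slc12a4 had 31.1 and 31.4 FPKM in SWAT, 26.2 and 25 in EWAT, and 27.1 and 26.8 in NWAT and was higher in SWAT than in EWAT (0.52 ± 0.10, adjusted p = 0.00165), and the sodium-potassium-chloride cotransporter Slc12a2 was not called.

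Metal carriers had 13 called of 24, beside 41.7% of all genes. The Slc39 family imports zinc and related metals into the cytosol and the Slc30 family removes zinc from it. Of 10 Slc39 members 6 passed the joint test. In SWAT against EWAT, 5 were higher and 0 lower, beside 18% and 18.7% of all genes. By library totals, 2 were higher and 0 lower. Slc39a14, a carrier of zinc, manganese and iron, had 10.2 and 11 FPKM in SWAT, 8.64 and 8.05 in EWAT, and 8.15 and 8.5 in NWAT and was higher in SWAT than in EWAT (0.60 ± 0.11, adjusted p = 0.00114). Slc39a7, which releases zinc from the endoplasmic reticulum, had 79.3 and 77 FPKM in SWAT, 69 and 78.9 in EWAT, and 60.4 and 56.8 in NWAT and was higher in SWAT than in NWAT (0.61 ± 0.11, adjusted p = 0.00161). Of 6 Slc30 members 0 passed the joint test by edgeR, although 1 was called higher in SWAT than in EWAT, and by library totals 4 were lower there. The exporter Slc30a1 had 1.74 and 3.12 FPKM in SWAT, 2.84 and 2.39 in EWAT, and 4.07 and 3.06 in NWAT, with the groups overlapping.

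Carriers of iron, magnesium and haem also included called members. Slc40a1, the only known cellular iron exporter, had 0.68 and 0.72 FPKM in SWAT, 2.2 and 2.69 in EWAT, and 1.83 and 1.71 in NWAT. SWAT was lower than EWAT (-1.57 ± 0.20, adjusted p = 8.03e-05) and than NWAT (-1.14 ± 0.20, adjusted p = 0.00181). Slc40a1 met the FPKM threshold only through EWAT and NWAT. The gene is known to be high in macrophages, whose summed genes were also lowest in SWAT. Against NWAT, 1 of those 8 genes, Fcer1g, was called lower in SWAT. The part of macrophages in this result was not tested. Slc48a1, a haem carrier of lysosomes, had 20.9 and 20.3 FPKM in SWAT, 32.9 and 35.3 in EWAT, and 27.8 and 25.1 in NWAT and was lower in SWAT than in EWAT (-0.49 ± 0.10, adjusted p = 0.00288). The magnesium carrier Slc41a2 had 7.29 and 8.37 FPKM in SWAT, 3.87 and 3.05 in EWAT, and 5.15 and 6.5 in NWAT and was lowest in EWAT (SWAT against EWAT 1.39 ± 0.15, adjusted p = 2.54e-05, EWAT against NWAT -0.75 ± 0.15). Its relative Slc41a1 had 12.1 and 13.8 FPKM in SWAT, 11.1 and 11.4 in EWAT, and 15.4 and 24.1 in NWAT, highest in the library with erythroid RNA. EWAT was lower than NWAT (-0.86 ± 0.18, adjusted p = 0.00728), with -0.49 without NWAT replicate 2 and -1.15 without NWAT replicate 1, and the call was lost without EWAT replicate 1 (-0.85) or EWAT replicate 2 (-0.86).

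Among carriers of taurine, creatine, betaine and amines, 5 of 6 members passed the joint test, beside 41.7% of all genes. The calls of 2 members, Slc6a2 and Slc6a12, held in all alternatives. That of the taurine carrier Slc6a6 was lost in 6, that of the creatine carrier Slc6a8 in 7 and that of Slc6a13 in 4. Slc6a2 met the FPKM threshold only through EWAT and NWAT, and Slc6a12 only through SWAT and NWAT. Their joint tests and their tests against the other depot are therefore not free of the rule. Slc6a2, the noradrenaline carrier, had 0.59 and 0.88 FPKM in SWAT, 1.35 and 1.67 in EWAT, and 4.15 and 3.07 in NWAT. NWAT was higher than SWAT (SWAT against NWAT -2.10 ± 0.20, adjusted p = 3.18e-05) and EWAT (EWAT against NWAT -1.30 ± 0.19, adjusted p = 4.57e-04). The 3 Schwann cell genes, the list nearest to nerve, summed to 1.22 and 2.33 FPKM in SWAT, 0.38 and 0.73 in EWAT, and 1.00 and 0.44 in NWAT; the part of nerve in this result was not tested. The betaine carrier Slc6a12 had 1.58 and 1.67 FPKM in SWAT, 0.99 and 0.94 in EWAT, and 2.1 and 1.67 in NWAT and was lower in EWAT than in SWAT (0.97 ± 0.23, adjusted p = 0.00706). Its relative Slc6a13, a GABA and taurine carrier, had 3.73 and 2.32 FPKM in SWAT, 5.82 and 6.44 in EWAT, and 9.86 and 5.81 in NWAT. SWAT was lower than NWAT (-1.18 ± 0.29, adjusted p = 0.0225), a call lost with no count filter (-1.17) and without SWAT replicate 2 (-0.86), EWAT replicate 1 (-1.18), EWAT replicate 2 (-1.17) or NWAT replicate 1 (-0.76).

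Nucleoside and nucleobase carriers were the most abundant group per gene. Slc43a3 was lower in SWAT than in EWAT (-0.83 ± 0.13, adjusted p = 3.77e-04) and higher in EWAT than in NWAT (0.53 ± 0.13, adjusted p = 0.00938); the second call was lost without NWAT replicate 1 (0.49). The equilibrative carrier Slc29a1 had 89.8 and 77.8 FPKM in SWAT, 108 and 111 in EWAT, and 115 and 124 in NWAT and did not pass. Slc29a3, its lysosomal relative, had 14.3 and 14.2 FPKM in SWAT, 14.8 and 13.9 in EWAT, and 11.3 and 11 in NWAT and was higher in SWAT than in NWAT (0.55 ± 0.10, adjusted p = 0.00239).

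Among 7 vitamin carriers 3 passed the joint test, beside 41.7% of all genes. The thiamine carrier Slc19a2 had 4.12 and 3.73 FPKM in SWAT, 11.2 and 10.8 in EWAT, and 5.5 and 4.51 in NWAT. EWAT was higher than SWAT (SWAT against EWAT -1.25 ± 0.13, adjusted p = 1.4e-05) and NWAT (EWAT against NWAT 1.09 ± 0.12), with no overlap. Of the 4 phosphate and sulfate carriers only Slc26a2, which supplies sulfate for proteoglycans, passed the joint test. It had 3.88 and 3.98 FPKM in SWAT, 2.96 and 1.9 in EWAT, and 4.42 and 3.93 in NWAT and was lower in EWAT than in SWAT (0.92 ± 0.19, adjusted p = 0.00315). The best known members of the nucleotide sugar group feed glycosylation in the Golgi and endoplasmic reticulum. In this group 7 of 21 passed, beside 41.7% of all genes, and none of their pairwise calls held in all alternatives. The group's summed level (mean ± SD, n = 2) was 194 ± 2.41 FPKM for SWAT, 224 ± 10.5 for EWAT and 201 ± 5.20 for NWAT. These sums follow library totals. With TMM scaling, the median log2 fold change of the group in SWAT against EWAT was 0.0124, with 2 members called higher and 2 lower.

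Proteins named after a carrier made up 4 members that transport nothing themselves. Slc9a3r2, a scaffold that tethers exchangers and receptors to the cell cortex, had 11.3 and 15.2 FPKM in SWAT, 22.7 and 27.2 in EWAT, and 13.7 and 14.1 in NWAT, and EWAT was higher than SWAT (SWAT against EWAT -0.66 ± 0.13, adjusted p = 0.00233) and NWAT (EWAT against NWAT 0.78 ± 0.13).

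Of 52 genes that work beside the carriers, 51 were tested and 29 passed the joint test, beside 41.7% of all genes. SWAT was higher than EWAT in 13 and lower in 10, beside 18% and 18.7% of all genes. It was higher than NWAT in 12 and lower in 9, beside 9.07% and 9.83%. EWAT was higher than NWAT in 10 and lower in 6, beside 13.3% and 14%. By library totals these counts were 8 and 20, 10 and 16, and 13 and 5. The genes named next were picked as examples after their values were seen. Emb, a chaperone that brings monocarboxylate carriers such as Slc16a7 to the surface, had 1.83 and 2.35 FPKM in SWAT, 0.07 and 0.17 in EWAT, and 0.17 and 0.19 in NWAT, with SWAT against EWAT at 4.32 ± 0.36, adjusted p = 3.05e-06. Basigin (Bsg), the chaperone for Slc16a1 and Slc16a3, had 176 and 166 FPKM in SWAT, 172 and 218 in EWAT, and 142 and 153 in NWAT, and the FPKM of SWAT and EWAT overlapped. Txnip, which promotes internalisation of Slc2a1, had 275 and 341 FPKM in SWAT, 181 in both EWAT libraries, and 152 and 141 in NWAT. It was higher in SWAT than in EWAT (1.00 ± 0.12, adjusted p = 8.02e-05) and NWAT (1.26 ± 0.12, adjusted p = 2.66e-05), the reverse of the order for Slc2a1.

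Other partner genes also differed by depot. Atp1b2, a beta subunit of the sodium pump that drives sodium-coupled carriers, had 0.86 and 1.12 FPKM in SWAT, 7.34 and 9.4 in EWAT, and 3.51 and 2.97 in NWAT, with SWAT against EWAT at -2.85 ± 0.18, adjusted p = 2.41e-07. The zinc-binding metallothionein Mt1 had 863 and 882 FPKM in SWAT, 1715 and 2055 in EWAT, and 1305 and 1400 in NWAT, and SWAT was lower than EWAT (-0.85 ± 0.12, adjusted p = 2.32e-04). The ATP-sensitive potassium channel subunit Abcc9 had 9.69 and 13.9 FPKM in SWAT, 0.82 and 0.6 in EWAT, and 0.53 and 0.4 in NWAT, with SWAT against NWAT at 4.85 ± 0.23, adjusted p = 7e-07. Its channel partner Kcnj8, one of the pericyte genes, had 0.79 and 1.32 FPKM in SWAT, 0.11 and 0.22 in EWAT, and 0.05 and 0.02 in NWAT, also highest in SWAT. The pericyte and smooth muscle list did not follow Kcnj8 as a whole. Of its 5 genes, SWAT was higher than EWAT in 2 and lower in 3, and higher than NWAT in 2 and lower in 0. The part of pericytes in the Abcc9 result was not tested.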

How the data were processed

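RNA was sequenced in bulk from sorted adipose-derived stem cells. The authors deposited estimated counts, not normalized per the file headers, with 1 row per gene symbol; 31.7% to 33.1% of values per library were not whole and were rounded. They also deposited FPKM values per symbol. Per the submitters' processing notes, GRCm38.p6 is the build; Seurat and Cell Ranger are listed too, with no role or version. No source used here gives the aligner, counting program, annotation or strand setting, so reads of overlapping genes cannot be told apart. Of each file, 2 columns matched no label and were left out; comparisons with the mesenteric depot were not run. The member rule was therefore applied over 6 columns, and repeated symbols were read from 1 entry.

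Counts were tested in edgeR 4.0.16 (R 4.3.3) with TMM scaling, filterByExpr by depot (count minimum 10, total minimum 15; 13694 genes), 1 coefficient per depot and robust quasi-likelihood tests with 3 residual degrees of freedom. P-values were adjusted by Benjamini-Hochberg over all genes tested, at 0.05. Each standard error is the log2 fold change over the root of its F statistic. Alternatives were DESeq2 1.42.0, RLE factors, library totals, no filter, at least 1 CPM in every library, limma 3.58.1 on log2(FPKM + 1) and log2(FPKM + 0.1), the replicate number as a block, each library left out, and other FPKM thresholds. The fit was tested on simulated data. Folds of members with 0 to 15 counts in a depot are ratios of library-scaled counts with exact 95% intervals, or a bound against 3 counts per library. Promoters are RefSeq windows on GRCm38.p6, present for 146 of the 189 members; locations are from RefSeq too.

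Members were grouped by substrate from a list; Slc4a1ap was added to the proteins named after a carrier after the tables were read. Named are the 30 called members of widest depot range whose mean log2 CPM reached 2, the 2 highest of each group, textbook carriers, members at the threshold and, chosen after their values were seen, further called members. The members and lists were chosen with earlier results of these data known. Results for some genes are not reported here.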

Additional observations from a re-analysis of the deposited data

How the results depend on the processing

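With 1 library left out at a time, the count of called members ranged from 26 to 60 for SWAT against NWAT (50 with all 6 libraries), from 35 to 66 for EWAT against NWAT (56), from 17 to 32 for members set apart in SWAT (29) and from 8 to 19 for those set apart in NWAT (15); a depot left with 1 library is assumed to vary like the others. The joint count (93), SWAT against EWAT (73), members set apart in EWAT (33) and the joint calls among the members named by rule (51) stayed within 1.5 times of these values in every alternative, as did the other counts outside leave-one-out. Of the 179 called pairwise differences of members, 0 changed sign in any alternative, although the splits of calls by direction turned with library totals and FPKM. Among the single results of members named by rule, these changed sign, none of them called with TMM scaling: Slc37a3, SWAT against EWAT, was -0.0581 by library totals, -0.0588 on log2(FPKM + 1) and -0.0635 on log2(FPKM + 0.1); Slc39a1, SWAT against NWAT, was -0.073, -0.0714 and -0.0722 in the same 3; Slc22a5, EWAT against NWAT, was 0.0074 and 0.0078 on log2(FPKM + 1) and log2(FPKM + 0.1). Slc35f5, EWAT against NWAT, was -0.0395 without EWAT replicate 2, Slc17a5, SWAT against EWAT, ranged from -0.1188 to 0.0405 (without EWAT replicate 1), and Slc12a2, SWAT against NWAT, from -0.1539 to 0.1146 (without SWAT replicate 1; 0.0794 with NWAT replicate 2 left out). The causes were not tested. Same-numbered libraries shared little deviation from their depot means, with correlations of 5e-04, 0.04 and 0.11 for the 3 pairs of depots. With 2 libraries per depot, this cannot tell whether same-numbered libraries came from the same mice or batch. With the number as a block the counts were 94 in the joint test and 75, 52 and 57 in the pairs. Those set apart in SWAT, EWAT and NWAT were then 31, 34 and 16. With 2 libraries per depot and 3 residual degrees of freedom, 96 members that missed the joint threshold are not shown to be equal among depots, and members under 2 FPKM rest on few reads.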

Other observations

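Several members lie close to a relative in the genome (RefSeq, GRCm38.p6), and their levels did not always follow each other. Slc38a4 on chromosome 15 begins 295088 bases beyond the end of Slc38a2; the first ranged from 1.07 to 8.99 FPKM over the 6 libraries and the second from 111 to 149 FPKM, and only the first passed the joint test. Slc6a12 on chromosome 6 begins 4853 bases beyond Slc6a13; Slc6a12 was lowest in EWAT (0.99 and 0.94 FPKM) and Slc6a13 in SWAT (3.73 and 2.32 FPKM). Slc22a4 begins 2782 bases beyond Slc22a21 on chromosome 11; Slc22a21 had 1.99 and 2.88 FPKM in SWAT, 2.05 and 2.50 in EWAT and 3.04 and 2.89 in NWAT, and Slc22a4 was highest in SWAT. Because strand and counting rules are not given, shared reads between such neighbours were not tested.

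Promoter windows of members with a wide depot range held fewer CpG dinucleotides. The observed to expected CpG ratio had a median of 0.48 in 23 members with a range of 1 log2 unit or more and of 0.69 in 123 others. Genes at the same FPKM threshold showed the same order, with 0.55 in 1140 genes and 0.78 in 7982. A ratio under 0.4 was found in 6 of the 23 members (26.1%) and in 12 of the 123 (9.76%), beside 32.6% and 9.23% of those genes. No window was in the table for 43 members.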
